A study of Mus musculus with 3 samples.

Results

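The genes described here encode dual-specificity MAP kinase phosphatases (Dusp genes), the enzymes that switch MAP kinases off. The members were Dusp1, Dusp2, Dusp4, Dusp5, Dusp6, Dusp7, Dusp8, Dusp10, Dusp14 and Dusp16, 10 of the 36609 genes on the array. They were taken by gene name and not by a cut on measured values, but earlier results of these data were known. They were read by 18 of 56599 probes that were not controls. Dusp2, Dusp6, Dusp7 and Dusp10 had 1 probe each, Dusp1, Dusp4, Dusp5 and Dusp8 had 2, and Dusp14 and Dusp16 had 3. Each probe is given apart, with letters a to c marking several probes of a gene in order of position.

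The study asked what mouse urine does to spleen cells in culture. Cells were taken from the spleen of male MRL/MpJ mice at 6 months of age. For 3 h they were in contact with phosphate-buffered saline (PBS), with MRL/MpJ urine or with urine from the MRL/MpJ-Faslpr/lpr strain, here called lpr urine. MRL/MpJ-Faslpr/lpr mice carry the lpr mutation of the death receptor Fas and develop a lupus-like disease, and MRL/MpJ is the strain without it. All 3 cultures held cells of MRL/MpJ mice, so only the urine donors differed at Fas. Per the labels' protocols, urine came from males aged 6 months, was pooled from 6 donors per strain and was passed through a 0.22 µm filter, and red cells in the spleen suspension were lysed with ammonium chloride. Wells held 500 µL of medium. The number of spleens, the dilution of the urine and the share of live cells are not given in the sources used here. Each condition was 1 culture on 1 array, so no difference below has a replicate check, and none carries a p-value or a standard error. An intensity difference can come from the treatment, the well or the array, and these cannot be told apart. In such bulk RNA, fewer cells of a type and less RNA per cell cannot be told apart either.

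MAP kinases are activated when an upstream kinase phosphorylates a threonine and a tyrosine in their activation loop, and dual-specificity phosphatases remove both phosphates. The nuclear phosphatases Dusp1, Dusp2, Dusp4 and Dusp5 are classically transcribed in response to the MAP kinase signal that they then end. Dusp6 and Dusp7 act in the cytoplasm and prefer ERK, and Dusp8, Dusp10 and Dusp16 prefer the stress kinases JNK and p38. Dusp14 is a small atypical member that lacks the MAP kinase docking domain. In lymphocytes and phagocytes these enzymes limit the strength and duration of antigen receptor and Toll-like receptor signals.

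Gene expression was read as processed signal, the background-subtracted brightness of a probe in arbitrary intensity units. Its 75th percentile over all probes was 157.5 for PBS, 86.6 for MRL/MpJ urine and 75.7 for lpr urine, so both urine arrays were dimmer overall. Synthetic E1A spike-in RNA (8 probes) was nearly level, at log2 differences of 0.05 and -0.06 from PBS. A log2 difference below is the difference of log2 processed signals after each array's 75th percentile was subtracted. A probe counted as higher or lower where the scanner software called it well above background on both arrays and it differed at least 2-fold. All 18 Dusp probes were well above background and unsaturated on all 3 arrays. Probes spotted 10 times gave a log2 difference of 2 arrays an SD of 0.372 at log2 signals below 5, 0.122 from 5 to 8, 0.0945 from 8 to 11 and 0.0514 above. This spot SD covers neither wells nor arrays. No probe's level was set against that of another probe.

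The promoters of 3 nuclear, inducible members are shown because their mRNAs behaved differently in these cultures, with Dusp2 far lower with urine and Dusp1 and Dusp5 not. Each run holds the 250 bases before the RefSeq start on GRCm38.p6, 5′ to 3′ on the gene's strand, and capitals mark motif matches. The windows lie at chr2:127335909-127336158 (plus strand) for Dusp2, chr17:26508473-26508722 (minus strand) for Dusp1 and chr19:53528895-53529144 (plus strand) for Dusp5.
Dusp2: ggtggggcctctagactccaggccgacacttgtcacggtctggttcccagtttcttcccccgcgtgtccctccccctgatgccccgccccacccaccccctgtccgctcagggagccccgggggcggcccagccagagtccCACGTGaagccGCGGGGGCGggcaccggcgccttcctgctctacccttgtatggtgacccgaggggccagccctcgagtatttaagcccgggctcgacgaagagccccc
Dusp1: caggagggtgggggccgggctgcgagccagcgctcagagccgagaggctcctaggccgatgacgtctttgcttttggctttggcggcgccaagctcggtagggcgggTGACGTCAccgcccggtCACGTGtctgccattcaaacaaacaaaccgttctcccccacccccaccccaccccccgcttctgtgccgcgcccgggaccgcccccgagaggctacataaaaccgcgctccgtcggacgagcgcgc
Dusp5: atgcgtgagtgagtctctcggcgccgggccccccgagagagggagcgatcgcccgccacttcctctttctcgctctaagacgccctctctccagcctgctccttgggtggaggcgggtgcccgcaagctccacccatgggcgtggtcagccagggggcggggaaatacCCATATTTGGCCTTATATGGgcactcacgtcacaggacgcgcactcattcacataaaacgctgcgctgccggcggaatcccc
In the Dusp2 window the capitals are an E-box (CACGTG) that starts at -109 and an EGR site (GCGGGGGCG) that starts at -98, counted from the start site. In the Dusp1 window they are a CRE (TGACGTCA), the cAMP response element, at -143 and an E-box at -126. In the Dusp5 window they are a pair of CArG boxes, the motif of serum response factor, that adjoin each other at -82 and -72.

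Motifs were searched on both strands in the RefSeq windows of 9 members, and the members were set beside 32851 windows of the same length. A CRE stood in 1.55% of all windows, a CArG box in 1.47%, the EGR site in 2.57% and the E-box in 6.02%. Dusp8 also held CRE matches, at -107 and -63. Neither the AP-1 site (TGANTCA, in 6.75% of all windows) nor the NF-kB motif (7.25%) matched in any of these 9 windows, and no searched motif matched in those of Dusp6, Dusp7, Dusp10, Dusp14 and Dusp16. A match describes these letters only and says nothing about binding.

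The probes of Dusp1, Dusp5 and Dusp14 are shown as examples of genes whose probes did not all give the same value. For Dusp1 this held with lpr urine (1.03 and 0.53) but not with MRL/MpJ urine (0.56 and 0.54). Probes of Dusp4, Dusp8 and Dusp16 also differed in value and are not shown. The opening 30 of the 60 bases of each probe shown are printed as deposited.
Dusp1 probe a: ccagtgtaggtttgtagctttcagttatcg
Dusp1 probe b: gactcgccactcgcctcccgccgccgggaa
Dusp5 probe a: tacagacactgagccctgatatgcagggca
Dusp5 probe b: cagggggaaaggcaataagttcccgtaaac
Dusp14 probe a: ctcttgaaattagtgtgccctgggatcaca
Dusp14 probe b: cgtgcgttgcctgtgacgttttttaaaact
Dusp14 probe c: atccattcatttcagttgcctctctgcatt
Of the 18 probes, 12 list a RefSeq accession of the same gene, 6 list none, and 0 list one of another gene. Dusp1 probe b lies apart from its gene. Of its 60 bases, 59 matched GRCm38 at chr17:26561441-26561499, 53.0 kb upstream of the RefSeq start of Dusp1, which lies on the minus strand, inside the noncoding gene 1700049J03Rik on the same strand and inside Ergic1 on the opposite strand. Whether it reads a Dusp1 transcript was not determined, so its values are given under the array's name for it only. Of Dusp14 probe c, 48 bases matched within the RefSeq Dusp14 gene, from base -226 to base -179 relative to the start site that the promoter table gives for it.

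More member probes were at least 2-fold lower than at least 2-fold higher when urine was set against PBS. By sign alone, 10 of the 18 lay below PBS and 8 above with either urine. With MRL/MpJ urine, 2 of 18 probes (11.1%) were at least 2-fold higher (Dusp5 probe a and Dusp7), where 15.5% of all 30286 probes measured on both arrays were. A further 6 probes (33.3%) of 4 genes (Dusp2, Dusp8, Dusp10 and Dusp16) were at least 2-fold lower, against 12.4% of all. With lpr urine, 3 probes (16.7%) were higher (also Dusp1 probe a), against 16.9% of all 29743, and 7 (38.9%) were lower (also Dusp16 probe c), against 13.2%. The median log2 difference of the 18 probes was -0.60 for MRL/MpJ urine and -0.51 for lpr urine, beside 0.06 and 0.08 over all measured probes. The higher share was thus near or under that of all probes, and the lower share was above it. Part of that excess counts several probes of 1 gene. Both comparisons share the PBS array, so their likeness is not independent.

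**Figure D1:**
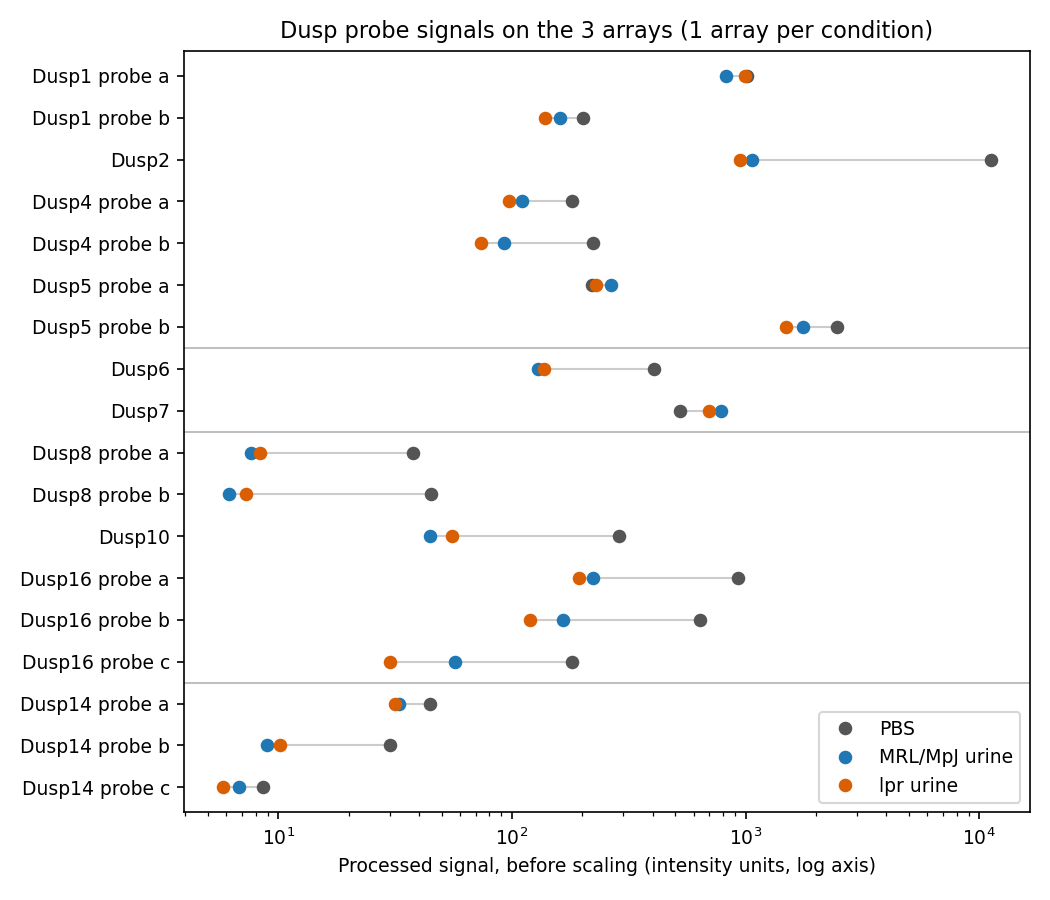
Processed signal (intensity units, log axis) of the 18 Dusp probes on the 3 arrays (PBS, MRL/MpJ urine, lpr urine), 1 point per array with no error bar because each condition had 1 array. Dusp2 lies at 11260 with PBS and at 1069 and 944 with the urines, whereas Dusp7 is brighter with urine although the urine arrays were dimmer overall.

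Among the nuclear, inducible phosphatases, Dusp2 was the member furthest from PBS, and the probes of Dusp1, Dusp4 and Dusp5 were at most 2.19-fold from PBS. Dusp2, an early gene of activated leukocytes that acts on ERK and p38, was read by a probe at chr2:127163930-127163989 (mm9, the build of the files). Its processed signal was 11260 in PBS, 1069 in MRL/MpJ urine and 944 in lpr urine. It was bright in PBS and about equally low with both urines. The log2 differences from PBS were -2.53 and -2.52, or 5.79-fold and 5.73-fold lower, against a spot SD of 0.0761 for either. With MRL/MpJ urine, 254 of the 30286 measured probes (0.839%) lay further down, and with lpr urine 325 of 29743. Dusp2 remained at least 2-fold lower under every scaling and background correction tried, with log2 differences from -3.52 to -2.39.

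Dusp1, which encodes a phosphatase of p38 and JNK and is a glucocorticoid-induced brake on cytokine production, stayed close to PBS in unscaled signal. Its probe a at chr17:26642624-26642683 gave processed signals of 1012 in PBS, 822 in MRL/MpJ urine and 995 in lpr urine. The unscaled signals with PBS and lpr urine were nearly equal. After scaling the log2 differences were 0.56 and 1.03, so the call of higher with lpr urine (2.04-fold) comes from the lower 75th percentile of that array. Scaled on the spike-ins, the differences were -0.35 and 0.03. The probe named Dusp1 b, at chr17:26698386-26698444, gave 201, 161 and 139, with log2 differences of 0.54 and 0.53.

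Dusp4, a nuclear phosphatase of ERK and JNK, had probes at chr8:35882045-35882104 (a) and chr8:35884806-35884865 (b). Probe a read 180 in PBS, 110 in MRL/MpJ urine and 96.9 in lpr urine, and probe b read 222, 92.0 and 74.1. The log2 differences were 0.15 and 0.16 for probe a but -0.41 and -0.53 for probe b, opposite in sign and all under 2-fold. Scaled on the spike-ins, both probes lay below PBS, at -0.75 and -0.84 for a and at -1.32 and -1.52 for b.

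Dusp5, a nuclear phosphatase specific for ERK, had probes 1097 bases apart, at chr19:53615682-53615741 (a) and chr19:53616779-53616838 (b). Probe a read 221 in PBS, 266 in MRL/MpJ urine and 228 in lpr urine, log2 differences of 1.13 and 1.10. Probe b read 2470, 1766 and 1484, log2 differences of 0.38 and 0.32. Only probe a thus passed 2-fold, and the differences of a and b lie apart by more than their spot SDs of 0.109 or 0.122 (a) and 0.0761 (b). Scaled on the spike-ins, probe a was at 0.22 and 0.11 and probe b at -0.53 and -0.67.

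The cytoplasmic ERK phosphatases had differences of opposite sign. Dusp7, at chr9:106277697-106277756, read 522 in PBS, 784 in MRL/MpJ urine and 698 in lpr urine. It was brighter with either urine before any scaling, and after scaling the log2 differences were 1.45 and 1.48, or 2.73-fold and 2.78-fold higher, with a spot SD of 0.0945. Of the measured probes, 8.66% and 9.06% lay further up. Scaled on the spike-ins it was still higher, at 0.54 and 0.48, but under 2-fold. Dusp6, the classical ERK-induced feedback phosphatase, at chr10:98729985-98730044, read 406, 130 and 137. Its log2 differences of -0.78 and -0.51 did not reach 2-fold, although scaling on the spike-ins put them at -1.69 and -1.51.

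Most probes of Dusp8, Dusp10 and Dusp16, grouped here as preferring JNK and p38, were lower with urine. Of the 6 probes of Dusp8, Dusp10 and Dusp16, 5 were at least 2-fold lower with MRL/MpJ urine and all 6 with lpr urine, beside 12.4% and 13.2% of all measured probes, with median log2 differences of -1.32 and -1.34. Under normexp background correction, which adds an offset of 50 and so shrinks differences of dim probes, the Dusp8 probes among these 6 were near 0, at -0.04 and -0.10 with MRL/MpJ urine and at 0.11 and 0.035 with lpr urine. Among the 7 probes of Dusp1, Dusp2, Dusp4 and Dusp5, 1 was higher and 1 lower with MRL/MpJ urine, and 2 were higher and 1 lower with lpr urine, with medians of 0.38 and 0.32. No test of this contrast between the groups was possible. The groups also overlap in substrate, because Dusp1, Dusp2 and Dusp4 act on JNK or p38 too. Of these, Dusp1 probe a was at 0.56 and 1.03 and Dusp2 at -2.53 and -2.52, with the Dusp4 probes under 2-fold.

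Dusp10, which restrains JNK in T cells and macrophages, was read at chr1:185898608-185898667. Its processed signal was 286 in PBS, 44.8 in MRL/MpJ urine and 55.2 in lpr urine, high only in PBS. The log2 differences were -1.81 and -1.31, or 3.51-fold and 2.49-fold lower. With normexp they were -1.12 and -0.88.

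Dusp16, a JNK phosphatase that shuttles between nucleus and cytoplasm, had a negative difference from PBS at all 3 of its probes, past 2-fold at a and b with MRL/MpJ urine and at every probe with lpr urine. Probe a (chr6:134665656-134665696) read 930 in PBS, 221 in MRL/MpJ urine and 194 in lpr urine, log2 differences of -1.21 for both. Probe b (chr6:134665783-134665842) read 639, 166 and 119, log2 differences of -1.08 and -1.36. Probe c, 21.8 kb away at chr6:134687549-134687608, read 181, 57.0 and 30.0, log2 differences of -0.81 and -1.53. Their signs were the same under every scaling tried and with normexp.

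Dusp8, an inducible JNK phosphatase best known from brain, was dim throughout. Probe a (chr7:149265636-149265695) read 37.6 in PBS, 7.62 in MRL/MpJ urine and 8.35 in lpr urine, and probe b (chr7:149267534-149267593) read 45.1, 6.16 and 7.27. The urine signals lie just above the lowest signal called well above background, which was 4.46 and 4.43 on the urine arrays. The log2 differences were -1.44 and -1.11 for probe a and -2.01 and -1.57 for probe b, with a spot SD of 0.277. As given above, normexp brought both probes near 0, so the size rests on how background is treated.

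Dusp14, an atypical phosphatase that dampens T cell receptor signalling, was below 2-fold at every probe. Probe a (chr11:83861547-83861606) read 44.6 in PBS, 33.0 in MRL/MpJ urine and 31.6 in lpr urine, log2 differences of 0.43 and 0.56. Probe b (chr11:83861916-83861975) read 30.1, 8.98 and 10.2, log2 differences of -0.88 and -0.51. Probe c, whose listed position spans chr11:83882038-83882588, read 8.57, 6.81 and 5.79, log2 differences of 0.53 and 0.49. Neighbouring probes a and b differ in sign, and the spot SD was up to 0.372 at these signals. Scaled on the spike-ins, all 3 lay below PBS, at -0.48 and -0.43 for a, -1.79 and -1.51 for b, and -0.38 and -0.50 for c, whereas normexp put probe b at 0.22 and 0.35.

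**Figure D2:**
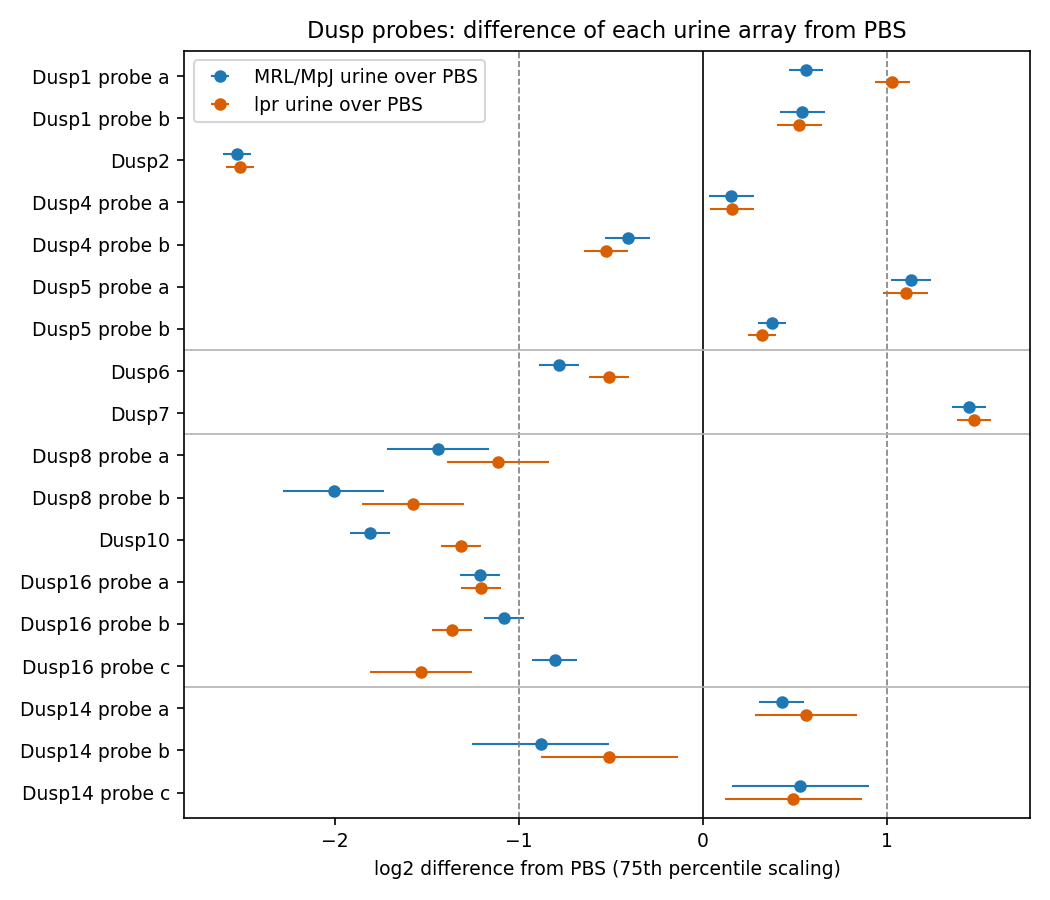
Log2 difference from PBS (75th percentile scaling) of each Dusp probe for either urine, ordered by the role of the encoded phosphatase, with bars of 1 spot SD that cover repeated spots only. The probes of Dusp8, Dusp10 and Dusp16 lie between -2.01 and -0.81, Dusp2 lies at -2.53 and -2.52, and Dusp7 lies at 1.45 and 1.48.

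The question of the lpr urine itself is the comparison of both urines. None of the 18 probes differed at least 2-fold between lpr and MRL/MpJ urine, where 0.294% of 30608 measured probes were higher with lpr urine and 0.0719% lower (90 and 22 probes). The median log2 difference of the members was 0.01, as over all measured probes (0.01), and the range was -0.73 (Dusp16 probe c) to 0.50 (Dusp10). Of the 18, 10 differed by less than 0.2. Set against repeated spots, 5 probes exceeded 2 spot SDs. How many of all measured probes met either limit was not counted, so neither count sets the members apart from other probes. Higher with lpr urine were Dusp10 (0.50), Dusp1 probe a (0.47) and Dusp6 (0.28), and lower were Dusp16 probe c (-0.73) and Dusp16 probe b (-0.28). Dusp16 probe a, close beside probe b, was at 0.00, so the gene's probes did not share this difference. Among the 30608 measured probes, 1066 lay further up than Dusp10, 1228 than Dusp1 probe a and 3310 than Dusp6. Further down lay 153 for Dusp16 probe c and 2464 for Dusp16 probe b. The spread between wells was not measured.

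How many members count as higher or lower with urine depends on the scaling, because the urine arrays were dimmer while the spike-ins were level. Scaling on the array median moved every log2 difference from PBS by -0.37 for MRL/MpJ urine and -0.39 for lpr urine, and scaling on the spike-ins moved them by -0.91 and -0.997. The split of higher to lower probes with MRL/MpJ urine was 2 to 6 as given above, 1 to 9 with median scaling and 0 to 10 with spike-in scaling. With lpr urine it was 3 to 7, 1 to 7 and 0 to 10. All probes moved with them. With median scaling, 9.60% and 10.1% of all measured probes were at least 2-fold higher, and 22.5% and 23.6% lower. On the spike-in scale 4.94% and 4.96% were higher and 43.6% and 46.8% lower, so 10 of 18 members stands less far above the rest there. In every scaling tried and with normexp, the 8 probes called with MRL/MpJ urine kept their sign. Of the 10 called with lpr urine, all kept it in each scaling and 8 with normexp, where Dusp8 probes a and b did not.

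**Figure D3:**
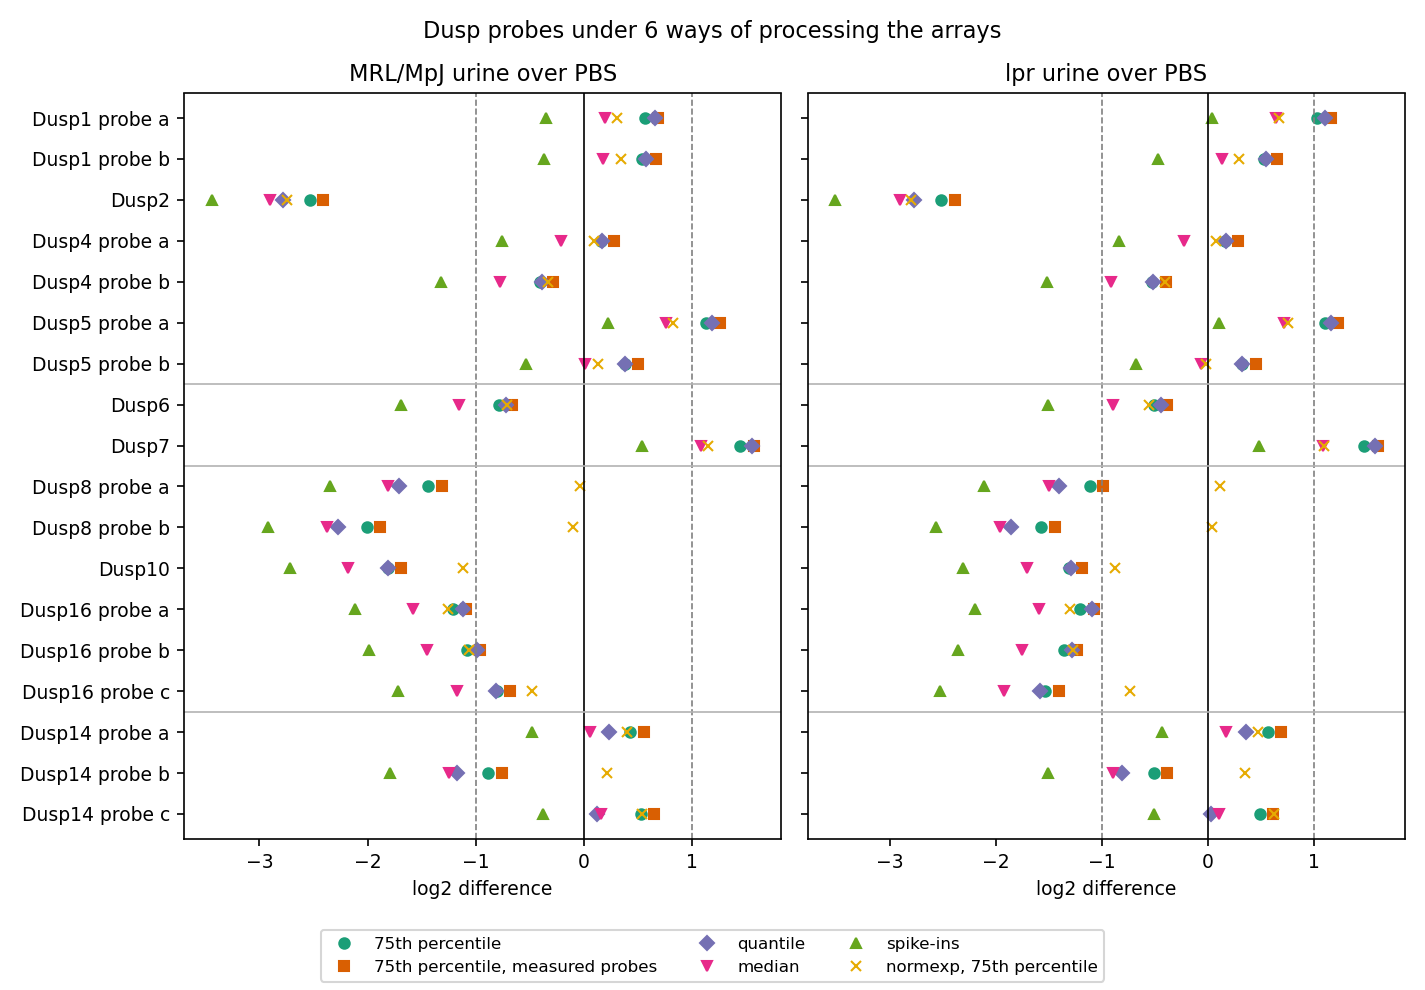
Log2 difference from PBS of each Dusp probe under 75th percentile, median, spike-in and quantile scaling, under the 75th percentile of probes measured on all arrays, and under normexp background correction, 1 panel per urine. Dusp2 lies at or below -2.39 under all of them, Dusp7 lies at or above 0.48, and the Dusp8 probes come to between -0.10 and 0.11 under normexp.

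Other genes of the MAP kinase pathways were read from 8 lists, 1 probe per gene, the brightest of those well above background on most arrays. Over all genes read this way, 16.9% of 19639 measured genes were higher and 11.3% lower with MRL/MpJ urine, and 18.5% of 19370 higher and 12.2% lower with lpr urine. Of 13 measured ERK-induced genes, 8 were higher and 2 lower with either urine, with medians of 1.29 and 1.73, and on the spike-in scale 5 were higher and 3 lower. The higher ones were Phlda1, Ier2, Fosb, Fos, Egr1, Ier3, Etv4 and Ccnd1, and the lower ones by the probe used were Egr2 and Egr3. Phlda1, an immediate early gene, read 229 in PBS, 9211 in MRL/MpJ urine and 7459 in lpr urine, log2 differences of 6.19 and 6.08. Fosb, an AP-1 subunit, read 92.8, 475 and 574, differences of 3.22 and 3.69. Ier2, another immediate early gene, was at 6.81 and 6.75 by the probe used here but at 0.07 and 0.29 by another. Fos read 267, 702 and 1082, differences of 2.26 and 3.08, and Egr1 read 551, 1307 and 1130, differences of 2.11 and 2.09. Its relatives Egr2 and Egr3 are zinc finger factors of lymphocyte activation. Egr2 read 1734, 212 and 210, differences of -2.17 and -1.99, and Egr3 read 772, 108 and 80.5, differences of -1.97 and -2.20, by the probe used here. The highest of the 3 measured Egr3 probes was at 2.41 and 2.54, so its probes differ in sign. Fosl1 read 72.5 with PBS and was not well above background with either urine. Beyond Phlda1, Ier2 and Fosb, these genes were chosen after their values were seen.

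Of the 11 transcription factors that MAP kinases phosphorylate, 3 were higher and 1 lower with either urine, with medians of 0.68 and 0.73. Jun, the AP-1 subunit activated by JNK, read 1369 in PBS, 14014 in MRL/MpJ urine and 11599 in lpr urine, log2 differences of 4.22 and 4.14. Junb was at 2.18 and 2.44, and at 3.15 and 3.39 by another probe. Jund was at 3.33 and 3.26 by the probe used here and at -0.55 and -0.52 by another. The lower factor by the probe used was Atf2, at -1.22 and -1.33, named after its value was seen, but the highest of its 4 measured probes was at 0.74 and 1.01. The RAS-ERK feedback inhibitors, 6 of 8 measured, had 1 higher and 2 lower with either urine. Spry2, an inhibitor of receptor tyrosine kinase signalling, was at -1.06 and -1.40, and Spred1 at -1.36 and -1.52 by the probe used here but at -0.08 and -0.15 by another. Both were dim with urine, at 18.3 and 12.6 for Spry2 and 21.6 and 16.9 for Spred1. Normexp put Spry2 at -0.18 and -0.20 and Spred1 at -0.50 and -0.47, so these sizes rest on how background is treated. Spred3 was at 4.47 and 4.60 by the probe used here and at 0.94 and 0.76 by another. The probe used read only 6.43 in PBS, and normexp put it at 1.64 and 1.74.

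Of the 14 ERK kinases and their activators, 0 were higher, 4 were lower when MRL/MpJ urine was set against PBS, and 3 for lpr urine. Map3k8, the kinase that couples Toll-like receptors to ERK, was at -1.65 and -1.43, Mapk7 (ERK5) at -1.21 and -1.37, and Map3k2 at -1.41 and -1.52 by the probe used here but at -0.46 and -0.28 by another. Braf, named after its value was seen, was at -1.11 and -0.88 by the probe used here, and the highest of its 4 measured probes was at 0.07 and -0.01. Of the 21 p38 and JNK kinases and their activators, 18 were measured with MRL/MpJ urine, with 1 higher and 0 lower, and 19 with lpr urine, with 2 higher and 0 lower. Map2k6, an activator of p38, was higher with both urines by the probe used here, at 1.73 and 1.80, and at 0.79 and 1.02 by another. Map3k6 was dimmer than the background criterion in MRL/MpJ urine and stood at 1.04 with lpr urine. It was very dim, and its unscaled signals of 5.46 in PBS and 5.39 in lpr urine were nearly equal. Its count as higher with lpr urine thus rests on the scaling. The spike-in scale put Map3k6 at 0.04 with lpr urine and normexp at 0.67. Mapk9 (JNK2) was at -0.94 and -0.90. Among 9 measured kinases activated by MAP kinases, Rps6ka5 was higher (1.47 and 1.70) and Mapkapk3, a kinase activated by p38, lower (-1.69 and -1.77), with Mapkapk2 at -0.68 and -0.81. On the spike-in scale no gene of these kinase lists was higher with either urine. There 7 of 14 measured ERK kinases and activators were lower with either urine, and 3 of 9 measured kinases that MAP kinases activate. Of the p38 and JNK kinases and activators, 11 of 18 were lower with MRL/MpJ urine and 12 of 19 with lpr urine. On that scale 43.6% and 46.8% of all measured probes were at least 2-fold lower with MRL/MpJ and lpr urine. These are shares over probes, whereas the lists hold 1 probe per gene, and the share over genes was not counted on that scale.

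Of 16 further dual-specificity phosphatases, 8 were measured, 1 higher and 2 lower with either urine, with medians of -0.45 and -0.43. Dusp3, a small phosphatase of ERK and JNK, read 615 in PBS, 96.5 in MRL/MpJ urine and 62.0 in lpr urine, log2 differences of -1.81 and -2.25. Dusp12 was at -1.22 and -1.23, and Dusp19 at 1.48 and 1.25. Of the 8 tyrosine and serine/threonine phosphatases that act on MAP kinases, 7 were measured and 0 reached 2-fold by the probe used, including Ptpn7 (0.96 and 0.73, with its highest probe at 1.02 and 1.19), Ppp2ca (-0.66 and -0.70) and Ppm1b (-0.81 and -0.99, but 0.59 and 0.72 by another probe). On the spike-in scale 0 of these phosphatases were higher with either urine. There 5 of the 8 measured dual-specificity phosphatases and 4 of the 7 others were lower, beside 43.6% and 46.8% of all measured probes. The share over genes, read as the lists are, was not counted on that scale. Between the urines, 0 genes of any of these lists differed 2-fold.

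**Figure D4:**
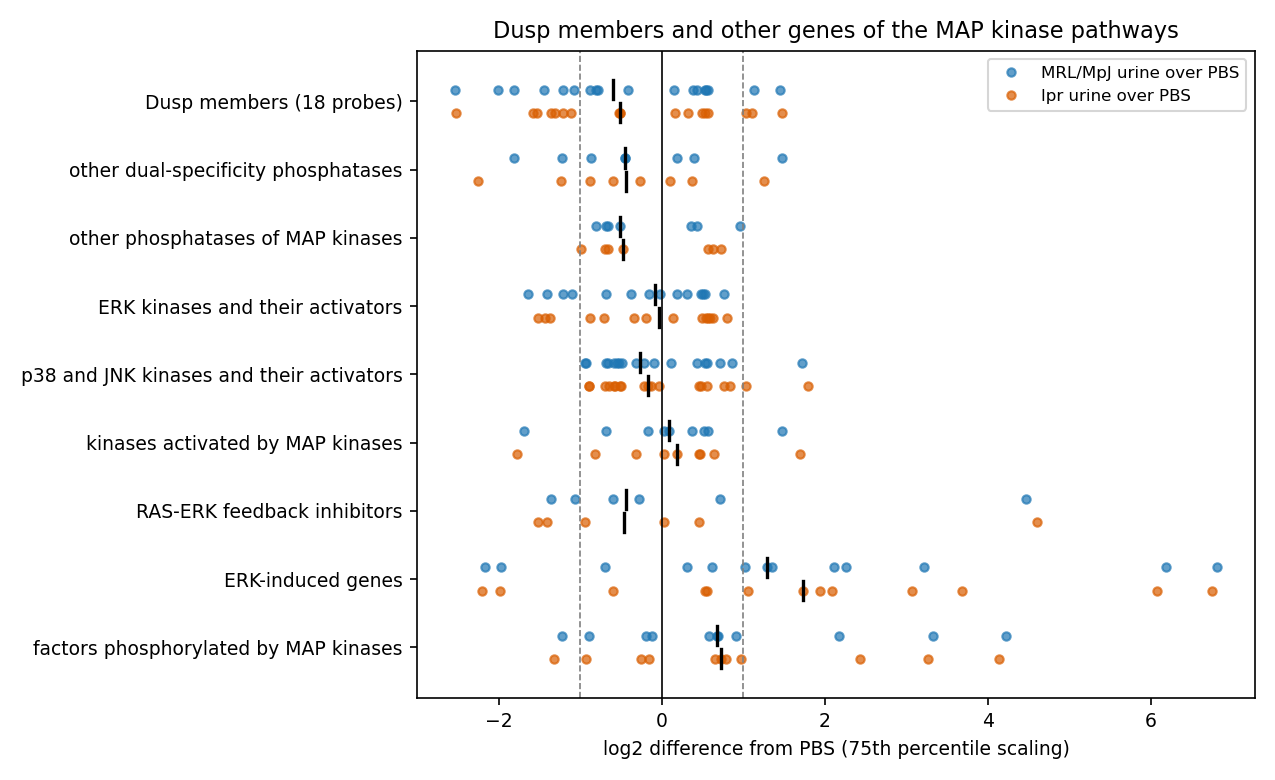
Log2 differences from PBS (75th percentile scaling) of the Dusp probes and of measured genes in the 8 lists of MAP kinase pathway genes, 1 point per probe or gene, with vertical ticks at the medians and dashed lines at 2-fold. The medians of ERK-induced genes are 1.29 and 1.73, while those of the Dusp probes are -0.60 and -0.51. Under normexp, not drawn here, the Dusp medians were 0.03 and 0.06.

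The genes most like the extreme members over the 3 arrays were found by the distance between their pairs of log2 differences from PBS, among 14127 genes. With 3 arrays many genes come close, so nearness describes these arrays only. Dusp7 was nearest to Cd38 (1.46 and 1.46, distance 0.0164), an ectoenzyme of lymphocytes, to Vamp5 (1.46 and 1.48) and to 4930524O05Rik (1.43 and 1.47). Dusp2 was nearest to Slc35f6 (-2.57 and -2.50, distance 0.0405), to Gramd3 (-2.51 and -2.55) and to Traf6 (-2.51 and -2.48), the ubiquitin ligase of Toll-like receptor signalling.

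Markers of NK and T cells, of neutrophils, of monocytes and macrophages, and of erythroid cells were well above background on all arrays, and some were higher with urine. Of 5 T cell markers, 0 differed 2-fold. Of 4 NK cell markers, Nkg7 (2.68 and 2.82) and Ncr1 (1.26 and 1.17) were higher. Klrk1 was at 0.01 and 0.01, and Klrb1c at -0.52 and -0.49. Ncr1 was dim, at 22.0 in PBS, and normexp put it at 0.72 and 0.73. Of 5 monocyte and macrophage markers, 3 were higher with either urine, C1qa and C1qb with both, Adgre1 with MRL/MpJ urine and Cd68 with lpr urine. Retnlg of 5 neutrophil markers and Klf1 of 4 erythroid markers were higher with both. Klf1 was dim, at 11.4 in PBS, and normexp put it at 0.72 and 0.71. On the spike-in scale, and likewise under normexp, Nkg7 alone of these markers was higher. Lower on the spike-in scale were Cd5 of the T cell markers (-1.19 and -1.24) and Klrb1c (-1.43 and -1.48). Summed signals here are unscaled, and both urine arrays were dimmer than the PBS array. The summed processed signal of T cell markers was 21752 with PBS and 12390 and 11466 with MRL/MpJ and lpr urine. For NK cell markers it was 772, 2344 and 2245, of which Nkg7 alone gave 642, 2262 and 2175. For monocytes and macrophages it was 2040, 1734 and 1703, for neutrophils 39646, 37258 and 34138, and for erythroid cells 6611, 5032 and 4540. Of the 7 markers of urinary tract epithelium, 5 were not well above background with PBS and MRL/MpJ urine and 6 with lpr urine, among them Upk1b, Upk2, Upk3a and Umod on each array, and their summed signal was 39.5, 24.9 and 22.0. The part of cell makeup in the Dusp differences was not tested.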

How the data were processed

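Total RNA of 3 cultures was labelled with Cy3 and hybridised to 3 one-colour Agilent arrays. Per the submitters' processing notes and the file headers, images were read with Agilent Feature Extraction 12.0.3.1. Per the file headers, the deposited processed signal is an intensity from which local background was subtracted within each array, and it was not normalised between arrays. Each array had 62976 spots. Control spots and flagged spots were left out, 300 probes spotted 10 times were averaged, and 6 probes with all spots flagged were dropped. The level was the log2 intensity after subtraction of its 75th percentile on that array. With 1 array per condition and 0 residual degrees of freedom, no test was made. Alternatives were median, spike-in and quantile scaling, a percentile over probes measured on all arrays, normexp (limma 3.58.1, R 4.3.3), no filter on dim probes, a signal of at least 50, and a 1.5-fold threshold. Counts were otherwise made in Python 3.11.15, numpy 2.4.6 and pandas 2.3.3, and the calling was checked on simulated data. All probes of the members are named, with the up to 3 measured genes of each list that differed most from PBS, and the 3 genes most like the extreme members. List genes were read from their brightest probe well above background. Symbols were checked against RefSeq on GRCm38.p6. A further marker list is not reported here. The members and lists were chosen with earlier results of these data known.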

Additional observations from a re-analysis of the deposited data

How the results depend on the processing

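With MRL/MpJ urine, the 2 higher probes became 1 with median scaling, 0 with spike-in scaling and 1 with normexp. Of all measured probes, 9.60%, 4.94% and 5.97% were higher there. The 6 lower became 10 with spike-in scaling and 3 where a signal of at least 50 was asked for, which kept 12 probes. Of all measured probes, 43.6% and 10.8% were lower there. With lpr urine, the 3 higher became 1, 0 and 1 with median scaling, spike-in scaling and normexp, beside 10.1%, 4.96% and 6.38% of all measured probes. The 7 lower became 3 with normexp and 4 of 12 at a signal of at least 50, beside 8.40% and 11.3%. Between the urines, 1 probe (Dusp16 probe c) was lower at 1.5-fold, beside 1.27% of all measured probes. Under normexp, Dusp8 probes a and b with lpr urine turned from lower to 0.11 and 0.035. The other counts of higher and lower probes stayed within 1.5 times of those reported under these alternatives, the percentile over probes measured on all arrays, quantile scaling and no filter on dim probes. Leaving out the Dusp1 probe outside the RefSeq gene, an alternative chosen after seeing the data, changed no count. No paired analysis was possible because each condition had 1 sample. Dim probes (Dusp8, Dusp14) lie close to background, where the spot SD was largest, and no measure of the spread between wells exists in these arrays.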
